A study of Mus musculus with 2 samples.

Results

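The barcodes described here are the high-mitochondrial barcodes of 2 scRNA-seq libraries, that is, droplets in which more than 10% of the unique molecular identifiers (UMIs) came from the 13 mitochondrially encoded mRNAs (mt- genes). They were compared, within each library, with intact cells, a name used here only for barcodes with at least 1000 detected genes and an mt share of at most 10%. There were 3643 high-mt barcodes among 25611 barcodes in both libraries. In the ESC library, 1376 of 13184 barcodes (10.4%) were high-mt and 11054 (83.8%) were intact cells, and in the 48h-EpiLC library these were 2267 of 12427 (18.2%) and 9400 (75.6%). The remaining 754 and 760 barcodes had fewer than 1000 genes and a low mt share, and are called low-complexity barcodes. The members were chosen by their measured mt share, and intact cells also by their gene number, so that these measures are given only as a description. The comparisons of gene levels come from the same contrast and are descriptions as well.

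The study followed mouse embryonic stem cells (ESCs) that lack Cnot8, a deadenylase gene of the Ccr4-Not complex, which shortens poly(A) tails, through the transition from naïve to formative pluripotency. All cells were of the ICR strain. The ESC library held cells kept in serum/LIF on feeder cells (0 h), and the 48h-EpiLC library held epiblast-like cells after 48 h with activin A, bFGF and KSR in N2B27 on Matrigel. Each library was an equal mixture of wild-type (WT) cells carrying the ROSAmT/mG reporter, which transcribes tdTomato, and of Cnot8 knockout (KO) cells, although the genotype entry of both libraries reads wild type. There was 1 library per stage and no replicate, so that no test was made and no p-value is given. What differs between the stages cannot be told apart from what differs between the libraries. Intervals in parentheses are exact 95% intervals for counting error only. Of all barcode sequences, 41 occurred in both libraries, of which 3 were high-mt in the ESC library and 7 in the 48h-EpiLC library.

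The mitochondrial genome is transcribed inside the organelle, and its mRNAs stay behind the mitochondrial membranes. Most nuclear-encoded mRNAs are translated in the cytosol, mRNAs of secreted and membrane proteins are translated at the endoplasmic reticulum (ER), and a group of long non-coding RNAs (lncRNAs) remains in the nucleus. A high mt share is widely used to set aside barcodes of damaged cells, and it says by itself nothing of how the other transcripts are made up. All levels below are therefore CPM, the usual scaling of UMI counts to a fixed total, here a total from which the mt- genes are left out.

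High-mt barcodes held few UMIs outside the mitochondrial genes. In the ESC library the median was 950.5 non-mt UMIs in high-mt barcodes against 11424.5 in intact cells, and in the 48h-EpiLC library it was 1101 against 14814. Median mt UMIs lay much closer, at 394.5 against 464 in the ESC library and 400 against 477 in the 48h-EpiLC library. Low-complexity barcodes, which were also shallow, had a median of only 15 and 13 mt UMIs. The plot of UMIs per barcode shows high-mt barcodes beside intact cells on the mt axis and to their left on the other.

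**Figure D1:**
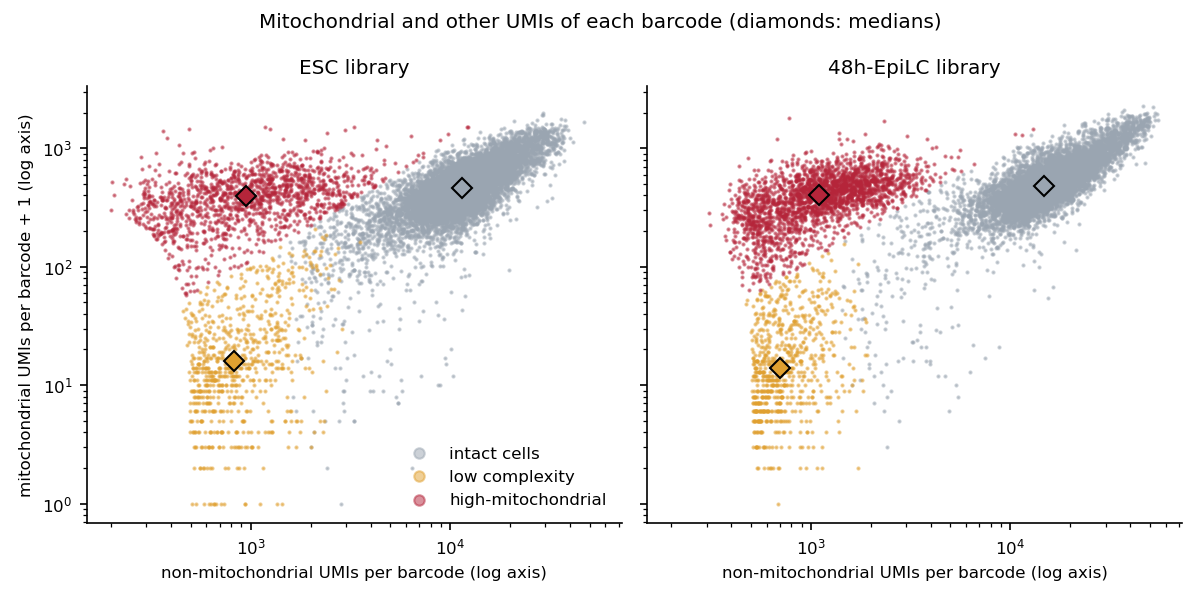
Mitochondrial UMIs plus 1 (y axis) against non-mitochondrial UMIs (x axis) of single barcodes in the ESC and the 48h-EpiLC library, both axes on a log scale, with points for barcodes of each group. High-mt barcodes reach mt UMIs close to those of intact cells (medians 394.5 and 464 in the ESC library) at fewer non-mt UMIs (950.5 and 11424.5).

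The median mt share was 27.8% (upper quartile 38.8%) in ESC high-mt barcodes against 3.96% in ESC intact cells. In the 48h-EpiLC library it was 25.1% (upper quartile 31.8%) against 3.13%. High-mt barcodes contributed 1.24% and 1.86% of the non-mt UMIs of their libraries but 9.33% and 15.5% of the mt UMIs. At least 1000 genes were detected in 408 (29.7%) of the ESC and 726 (32.0%) of the 48h-EpiLC high-mt barcodes, which a filter on gene number alone would have kept. The median gene number was 692.5 against 3549 in the ESC library and 779 against 4057 in the 48h-EpiLC library. After each barcode had been thinned to 1000 non-mt UMIs, the order of these medians turned, with 734 genes in high-mt barcodes against 678 in intact cells of the ESC library and 733 against 666 in the 48h-EpiLC library. Thinning left out 718 ESC and 981 48h-EpiLC high-mt barcodes that were too shallow, and no intact cell.

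Barcodes just inside and just outside the threshold differed by less than the groups as a whole. Malat1, a nuclear lncRNA, was at 8672 CPM in the 151 ESC barcodes with an mt share of 8 to 10% and at 10834 CPM in the 97 barcodes with 10 to 12%. Among 48h-EpiLCs it was at 8907 CPM in 79 barcodes below and at 13974 CPM in 65 barcodes above the threshold. Ribosomal protein mRNAs made up 21.8% and 19.8% of non-mt UMIs on the lower and upper side in the ESC library, and 21.9% and 19.5% in the 48h-EpiLC library.

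Summed over the barcodes of each group, more genes were higher than lower in high-mt barcodes. A gene was counted when log2 of (CPM + 1) in high-mt barcodes over (CPM + 1) in intact cells was past 2-fold, among genes with a mean of at least 5 CPM over both groups. In the ESC library 991 of 9815 genes (10.1%) were past 2-fold higher and 81 (0.825%) past 2-fold lower, and in the 48h-EpiLC library 1281 of 9962 (12.9%) were higher and 34 (0.341%) lower. The median over all genes was 0.21 in the ESC and 0.25 in the 48h-EpiLC library. This split depends on the scaling. With TMM factors, which align the bulk of the genes, every log2 ratio of CPM shifts by -0.39 in the ESC and by -0.42 in the 48h-EpiLC library, the medians become -0.17 and -0.16, and the counts become 275 higher and 505 lower in the ESC and 345 higher and 426 lower in the 48h-EpiLC library. A log2 ratio between 0 and about these shifts therefore changes its sign with the scaling, and class medians are best read against the median of all genes.

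The libraries shared most of the genes past 2-fold higher. Of the 9288 genes measured in both, 883 were past 2-fold higher in the ESC and 1135 in the 48h-EpiLC library, and 654 were so in both (74.1% and 57.6% of the respective lists). No gene was past 2-fold in opposite directions. Lower genes overlapped less, with 13 in both libraries (17.3% of 75 and 40.6% of 32). The log2 ratios of the libraries had a Pearson correlation of 0.848 across the 9288 genes, which are not independent and whose libraries share reagents and protocol. LncRNAs were 50 of the genes higher in both. Genes low in intact cells could be measured only where they were high in high-mt barcodes, so that this number is not set against all genes.

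**Figure D2:**
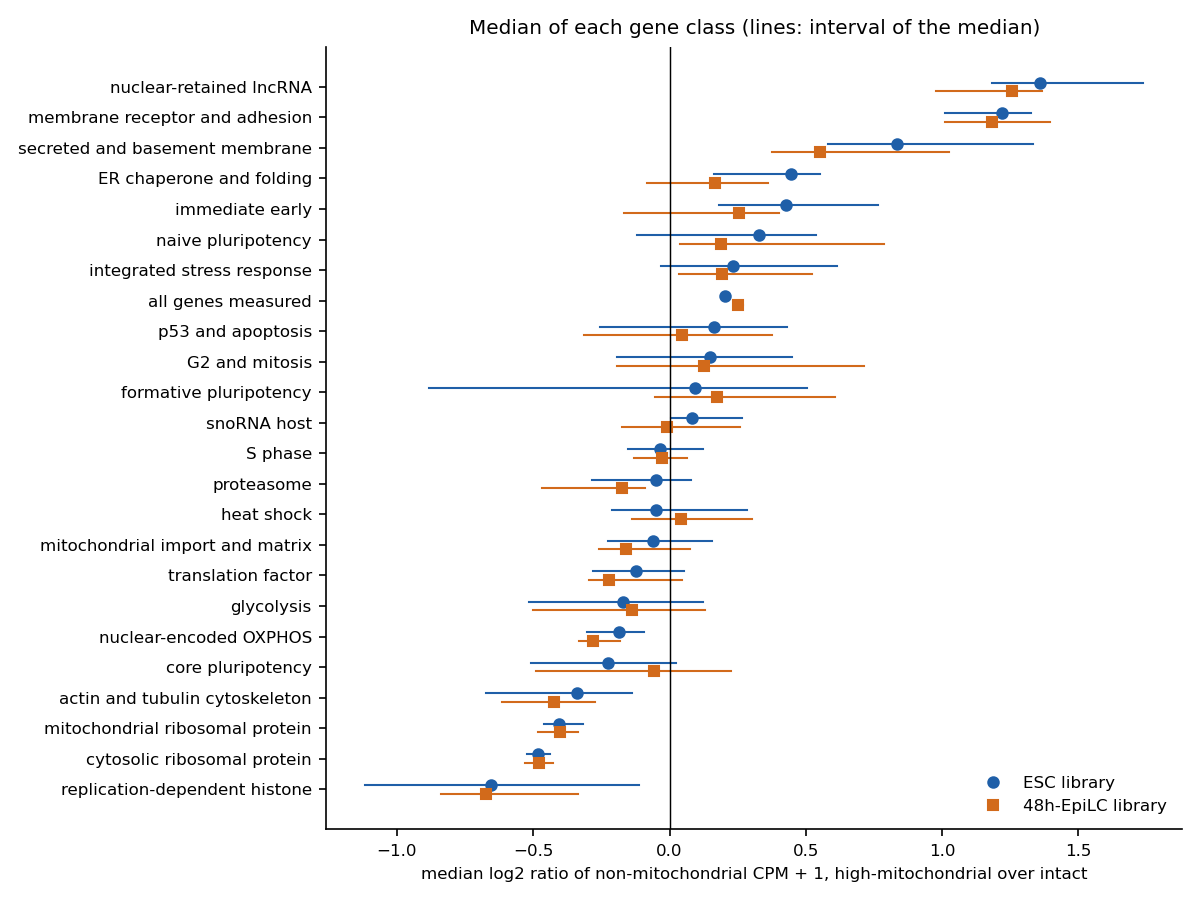
Median log2 ratio of high-mt barcodes over intact cells (x axis) for each gene class (y axis) in the ESC and the 48h-EpiLC library, with lines for the order-statistic interval of the median over genes (the range of the genes for under 6 genes). Nuclear-retained lncRNAs (1.36 and 1.26) and membrane receptor and adhesion genes (1.22 and 1.18) lie highest among the transcript classes, and replication-dependent histone genes (-0.66 and -0.67) lie lowest.

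Nuclear-retained lncRNAs had the highest ratios among the transcript classes. All 12 measured members were above 0 in both libraries, with a median of 1.36 (interval over genes 1.18 to 1.74) in the ESC and 1.26 (0.98 to 1.37) in the 48h-EpiLC library. Past 2-fold were 10 of 12 in the ESC library, against 10.1% of all genes, and 9 of 12 in the 48h-EpiLC library, against 12.9%. The class took 2.04% of the non-mt UMIs of ESC high-mt barcodes against 0.620% in intact cells, and 1.38% against 0.556% in the 48h-EpiLC library.

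Malat1 was the most abundant member, at 18278 CPM in high-mt barcodes against 5482 CPM in intact cells of the ESC library and at 12118 against 4877 CPM in the 48h-EpiLC library (log2 ratios of 1.74 and 1.31). It is a largely unspliced RNA of nuclear speckles. Neat1, the scaffold of nuclear paraspeckles, was at 259 against 80.6 CPM in the ESC library (1.67) but at only 26.6 against 14.2 CPM in the 48h-EpiLC library (0.86). Kcnq1ot1, which silences an imprinted cluster in cis, was at 706 against 201 CPM and at 527 against 179 CPM. The imprinted lncRNAs Meg3 (1.40 and 0.98), Rian (1.32 and 1.36) and Mirg (1.18 and 1.37), which lie in the same locus on chromosome 12, had similar ratios. Meg3 in the 48h-EpiLC library thus lay just under 2-fold. Tug1 (1.51 and 1.19) and Firre (1.20 and 1.16), an X-linked RNA of nuclear organization, were past 2-fold in both libraries.

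Xist, which coats the inactive X chromosome, had the largest ratio of the class. It was at 99.2 CPM in high-mt barcodes against 15.2 CPM in intact cells of the ESC library and at 44.3 against 5.95 CPM in the 48h-EpiLC library (2.63 and 2.70). Its antisense partner Tsix was at 123 against 52.9 CPM and at 67.4 against 27.2 CPM (1.20 and 1.28). The sources used here do not state whether counting used the strand of the reads, so that reads of Xist and Tsix may not be separable, and the same holds for every pair of genes on opposite strands.

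Not all nuclear-derived RNAs of this kind moved alike. SnoRNA host genes, whose introns give small nucleolar RNAs and whose spliced transcripts are exported, had medians of 0.08 and -0.01, below the median of all genes in both libraries. Gas5 was at 466 against 426 CPM in the ESC library and at 432 against 435 CPM in the 48h-EpiLC library. Snhg14 was the member past 2-fold in both libraries (1.19 and 1.10), a long transcript that overlaps Ube3a on the opposite strand.

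The gene with the largest ratio in either library was AY036118, at 1970 against 108 CPM in ESCs and at 2513 against 128 CPM in 48h-EpiLCs (4.17 and 4.28). It lies on chromosome 17 opposite to Gm42418, which was at 6300 against 1354 CPM and at 4736 against 957 CPM. These annotated lncRNAs are known to collect reads of ribosomal RNA, whose sequence they overlap.

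Several of the genes with the largest ratios were low in intact cells and overlapped by a gene on the opposite strand. Phykpl, on the strand opposite to Hnrnpab, was at 115 against 15.6 CPM in the ESC library and at 141 against 18.9 CPM in the 48h-EpiLC library. Map3k12, opposite to Pcbp2, was at 100 against 16.3 CPM and at 104 against 13.4 CPM. Ecm2, opposite to Cenpp, was at 26.8 against 1.55 CPM and at 31.0 against 0.915 CPM. The antisense lncRNA E530011L22Rik, opposite to Nktr, was at 31.5 against 3.15 CPM and at 44.9 against 2.62 CPM. In the ESC library 34 of the 51 genes past 4-fold higher were overlapped by a gene on the opposite strand, and in the 48h-EpiLC library 55 of 72. Among all genes past 2-fold higher the overlapped share was smaller, at 39.2% and 41.8%, beside 35.7% of all measured genes in each library. Genes such as Ecm2 and E530011L22Rik, under 5 CPM in intact cells, passed the filter on low values only through the high-mt barcodes. The share of all measured genes is therefore given for scale only, and nothing is concluded from these counts and shares. Hpgds, a prostaglandin D synthase gene with no gene on the other strand, was at 48.4 against 7.81 CPM and at 103 against 7.50 CPM.

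Transcripts of membrane receptors, transporters and adhesion molecules also stood high as a class. All measured members were above 0, 33 in the ESC and 35 in the 48h-EpiLC library, with medians of 1.22 (1.01 to 1.32) and 1.18 (1.01 to 1.40). Past 2-fold were 23 of 33 and 24 of 35, beside the same shares of all genes (10.1% and 12.9%). These shares were not matched for transcript length, which is taken up below. The class made up 0.481% of the non-mt UMIs of high-mt barcodes against 0.228% in intact cells of the ESC library, and 0.501% against 0.243% in the 48h-EpiLC library. Per barcode, the median share was 0.425% against 0.223% and 0.441% against 0.241%.

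Among nutrient transporters, Slc38a2, a neutral amino acid carrier, was at 971 CPM in high-mt barcodes against 405 CPM in intact cells of the ESC library and at 903 against 453 CPM in the 48h-EpiLC library (1.26 and 0.99). The glucose transporter Slc2a1 was at 497 against 240 CPM and at 433 against 202 CPM (1.05 and 1.10), and Slc2a3, another glucose transporter, had ratios of 1.01 and 1.27. Among adhesion molecules, Cdh1 (E-cadherin) was at 185 against 73.5 CPM and at 310 against 116 CPM (1.32 and 1.41). Itgb1, the integrin beta subunit that receives laminin and fibronectin signals, was at 215 against 91.4 CPM and at 179 against 75.4 CPM (1.23 and 1.24). Epcam, a short epithelial adhesion transcript, stayed under 2-fold at 499 against 294 CPM and at 697 against 466 CPM (0.76 and 0.58).

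Members of the lipoprotein receptor family were high as well. Lrp2 (megalin) was at 51.9 against 15.8 CPM and at 150 against 36.0 CPM (1.66 and 2.03). Lrp1 was at 52.5 against 13.3 CPM and at 40.2 against 11.1 CPM. The Wnt co-receptor Lrp6 (1.35 and 1.44) was also past 2-fold in both libraries. Growth factor and developmental receptors followed the same pattern, namely Igf2r (1.63 and 1.81), Igf1r (1.28 and 1.31), Notch2 (1.52 and 1.57), Notch3 (1.41 and 1.45) and the LIF receptor Lifr (1.21 and 1.03).

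Secreted and basement membrane genes had medians of 0.84 (11 of 27 past 2-fold, against 10.1% of all genes) in the ESC and 0.55 (9 of 28, against 12.9%) in the 48h-EpiLC library. Fibronectin, Fn1, was at 306 against 112 CPM in the ESC library and at 136 against 42.8 CPM in the 48h-EpiLC library (1.45 and 1.64). The laminin chains Lamb1 (1.86 and 1.54), Lamc1 (1.33 and 1.46) and Lama5 (1.25 and 1.79), the collagen IV chain Col4a1 (1.57 and 1.88) and the heparan sulfate proteoglycan Hspg2 (1.33 and 1.79) were past 2-fold in both libraries. So was Apoe, whose transcript is short, at 2029 against 810 CPM and at 927 against 399 CPM (1.32 and 1.21). The small secreted products Spp1 (0.84 and 0.45) and Lefty1 (0.99 and 0.75) stayed under 2-fold.

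Some of these matrix genes are also made by feeder fibroblasts and primitive endoderm, whose markers were higher in high-mt barcodes. The 15 feeder fibroblast markers summed to 215 CPM in ESC high-mt barcodes against 63.3 CPM in ESC intact cells, led by Col1a1 (63.6 against 11.4 CPM), and none was at 0. Their part in the ratios of matrix genes was not tested, other than by leaving barcodes out. In the 48h-EpiLC library, which had no feeder layer, they summed to 30.3 against 16.7 CPM, with Col3a1, Postn and Col6a1 at 0 in high-mt barcodes. The 14 primitive endoderm markers summed to 181 against 66.3 CPM and to 40.2 against 15.9 CPM, led by Col4a1 (55.4 against 18.0 CPM and 26.2 against 6.40 CPM). Col4a1 is itself one of the matrix genes named above, and the feeder list holds other collagen genes. The marker sums are therefore not separate from the levels of matrix genes. Afp and Ttr were at 0 in ESC high-mt barcodes, and Hnf4a, Gata4, Sox7 and Ttr in 48h-EpiLC high-mt barcodes. The 2-cell-like markers summed to 26.8 against 11.8 CPM and to 11.9 against 15.6 CPM. In ESC low-complexity barcodes the feeder markers summed to 191 CPM, so that a high feeder sum was not particular to high-mt barcodes. There the 2-cell-like markers summed to 96.4 CPM, above both other groups, and the primitive endoderm markers to 58.4 CPM, below both. In the 48h-EpiLC library the sums of low-complexity barcodes lay between those of high-mt barcodes and intact cells for each list. Feeder markers exceeded 0.5% of the non-mt UMIs in 10 of 1376 ESC high-mt barcodes and in 4 of 11054 intact cells, and primitive endoderm markers in 7 and 2. Without all barcodes that exceeded this share for any of the 3 lists, the ESC library had 893 genes past 2-fold higher and the 48h-EpiLC library 1282.

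Genes of ER chaperones and protein folding, whose products reside in the ER, had medians of 0.44 (3 of 31 past 2-fold) in the ESC and 0.17 (1 of 31) in the 48h-EpiLC library. With TMM factors these medians were 0.06 and -0.23. The 3 ESC genes past 2-fold were 9.68% of the class, close to the 10.1% of all genes. In the 48h-EpiLC library the share was 3.23%, against 12.9% of all genes, and the median lay under that of all genes (0.25). The ER chaperone Hspa5 (BiP) was at 1422 against 585 CPM and at 1064 against 534 CPM (1.28 and 0.99), and Hyou1 had ratios of 1.15 and 1.12. Hsp90b1 was at 0.58 and 0.42, and Sec61g, a small subunit of the translocon, was lower at -0.54 and -0.39.

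Cytosolic ribosomal protein mRNAs lay below the other genes. Their median was -0.48 in each library, 82 and 83 of the 84 measured members were below 0, and none was past 2-fold in either direction. They made up 16.4% of the non-mt UMIs of high-mt barcodes against 22.6% in intact cells of the ESC library, and 17.4% against 23.7% in the 48h-EpiLC library. Because they take so large a share, they also set the level of the other genes. When they were left out of the totals, all other ratios shifted by -0.11 in the ESC and by -0.12 in the 48h-EpiLC library. Rpl13 was at 3903 against 5632 CPM and at 4283 against 6105 CPM (-0.53 and -0.51), and Rps29 at 5230 against 6610 CPM and at 4142 against 5299 CPM (-0.34 and -0.36).

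The ribosomal share varied more among high-mt barcodes than among intact cells. Its 10th, 50th and 90th percentiles were 10.7%, 16.9% and 27.2% in ESC high-mt barcodes against 19.2%, 22.5% and 26.1% in intact cells, and 12.6%, 18.7% and 28.0% against 20.5%, 23.6% and 26.9% in the 48h-EpiLC library. Some high-mt barcodes thus lay above the intact cells and more lay below. High-mt barcodes also had fewer UMIs, and the part of counting noise in this spread was not tested.

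Translation factors had medians of -0.12 and -0.22, with Eef1a1, the elongation factor, at -0.51 in each library and Eif2s2 at 0.30 and 0.38. Cytoskeletal genes had medians of -0.34 and -0.42, and 18 and 21 of 22 were below 0. The actin-binding profilin Pfn1 was their member past 2-fold, at 447 against 1069 CPM and at 444 against 1082 CPM (-1.26 and -1.28). Actb, at 2677 against 3519 CPM and at 2024 against 2819 CPM, decreased by 0.39 and 0.48 on the log2 scale. The glycolytic enzyme gene Gapdh was at 1308 against 2343 CPM and at 1451 against 2920 CPM (-0.84 and -1.01), although the glycolysis class as a whole had medians of only -0.17 and -0.14.

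Replication-dependent histone genes had the lowest medians, -0.66 over 27 measured genes in the ESC and -0.67 over 21 in the 48h-EpiLC library. Most of their mRNAs end in a stem-loop and carry no poly(A) tail, so that poly(A)-primed libraries hold few of them. Past 2-fold lower were 8 and 5 members, against 0.825% and 0.341% of all genes. In low-complexity barcodes the histone median was -0.50 in the ESC and -0.15 in the 48h-EpiLC library. Hist1h2ap was at 119 against 317 CPM and at 70.1 against 195 CPM (-1.41 and -1.46), and the linker histone Hist1h1b was at 114 against 273 CPM and at 181 against 299 CPM (-1.26 and -0.72). The S phase genes, which are expressed with the histones, lay at -0.03 in both libraries, with the replication clamp Pcna at 0.28 and 0.07 and Mcm3, a replicative helicase subunit, at -0.05 and -0.01. No histone UMI was found in 58.8% of ESC and 52.8% of 48h-EpiLC high-mt barcodes, against 1.89% and 1.69% of the deeper intact cells.

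Single genes outside these classes were also lower. Selenow, a selenoprotein, was at 68.3 against 172 CPM and at 62.0 against 154 CPM. Bad, a pro-apoptotic BH3 protein, was at 9.33 against 29.2 CPM and at 10.2 against 24.4 CPM (-1.55 and -1.18), from 16 and 30 UMIs in high-mt barcodes. Hsd17b14, a steroid dehydrogenase, was at 70.0 against 167 CPM and at 29.6 against 74.5 CPM. Mpc1, a subunit of the mitochondrial pyruvate carrier, was past 2-fold lower in the ESC library only, with -1.28 and -0.44. Whether the libraries differed in it was not tested.

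Nuclear-encoded mitochondrial genes had medians below that of all genes. Mitochondrial ribosomal protein genes had medians of -0.41 and -0.40, and 69 and 73 of 78 were below 0. Nuclear-encoded genes of oxidative phosphorylation (OXPHOS) had medians of -0.19 and -0.28 over 79 genes, with Cox4i1 the exception among the abundant ones, at 1365 against 842 CPM and at 1166 against 910 CPM (0.70 and 0.36). The matrix chaperonin Hspd1 was at 2828 against 2093 CPM and at 2730 against 1792 CPM (0.43 and 0.61). Its cochaperonin partner Hspe1, transcribed in the other direction from the same promoter region, was at 1114 against 1332 CPM and at 1142 against 1364 CPM (-0.26 and -0.26).

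The make-up of the mitochondrial UMIs themselves was compared as the share that each of the 13 mt- genes took of all mt UMIs, a measure that the rule did not use. All 13 differences had the same sign in both libraries. mt-Nd3 was lower, with 0.967% of mt UMIs in high-mt barcodes against 1.33% in intact cells of the ESC library and 0.741% against 1.31% in the 48h-EpiLC library (log2 ratios of -0.46 and -0.82). mt-Nd1, the most upstream of the mRNAs on its strand, was at 13.1% against 15.2% and at 10.0% against 11.9% (-0.22 and -0.25). mt-Atp6, a subunit of ATP synthase, was the most abundant and higher, at 20.0% against 17.8% in the ESC library (0.16, and 0.12 in the 48h-EpiLC library). mt-Atp8 (0.61 and 0.26) and mt-Nd4l (0.60 and 0.20), which share a transcript with mt-Atp6 and mt-Nd4, were higher, as were mt-Nd5 (0.37 and 0.12) and mt-Nd6 (0.54 and 0.59). mt-Co1 (-0.06 and -0.15), mt-Cytb (-0.12 and -0.12) and mt-Nd4 (-0.04 and -0.09) were lower by little. Low-complexity barcodes, with a low mt share, had many of these differences from intact cells as well. In them mt-Nd1 was at 10.5% and 9.59%, mt-Nd3 at 1.12% and 1.04% and mt-Nd6 at 0.156% and 0.163%. In the ESC library mt-Nd2, mt-Co1 and mt-Nd4 went the other way there. The make-up was thus not particular to high-mt barcodes.

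**Figure D3:**
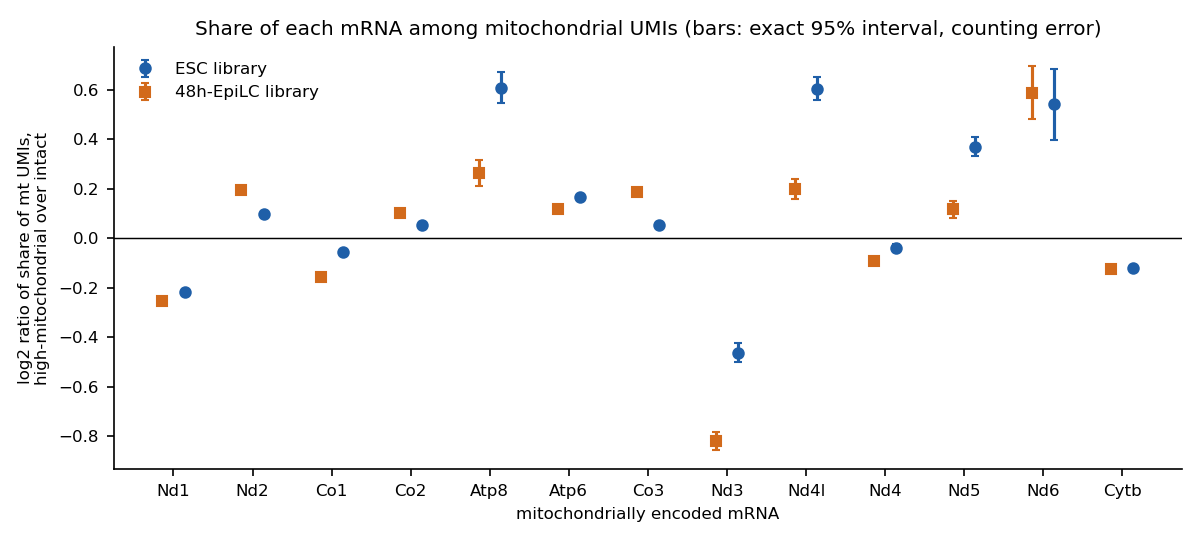
Log2 ratio of the share of mitochondrial UMIs in high-mt barcodes over that in intact cells (y axis) for each of the 13 mt- genes (x axis, prefix left out), with points for the ESC and the 48h-EpiLC library and lines for the exact intervals for counting error. mt-Nd3 lies lowest (-0.46 and -0.82), and every gene lies on the same side of 0 in both libraries.

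Stress and cell cycle genes had small median ratios. Immediate early genes had medians of 0.43 and 0.25, integrated stress response genes of 0.23 and 0.19, p53 and apoptosis genes of 0.16 and 0.05, and heat shock genes of -0.05 and 0.04. Ier3, an immediate early gene, was at 80.5 against 35.6 CPM and at 120 against 70.4 CPM (1.16 and 0.76). Slc7a3, a cationic amino acid transporter on the integrated stress response list, had 1.05 and 0.87, whereas Atf4, the transcription factor of that response, had -0.03 and 0.13. The apoptosis effector Bax was at 350 against 553 CPM and at 352 against 547 CPM (-0.66 and -0.64). G2 and mitosis genes had medians of 0.15 and 0.13 and held members on both sides of 0, with Cenpf (0.69 and 0.98) and Top2a (0.45 and 0.71) above it and Ube2c (-0.53 and -0.58) and Cks2 (-0.41 and -0.30) below it.

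Naïve genes were above 0 in 7 of 12 (ESC) and 9 of 9 (48h-EpiLC) measured members, formative genes in 4 of 5 and 5 of 6, and core factors in 1 of 4 and 2 of 4. Among all genes measured, 6319 of 9815 (ESC) and 6589 of 9962 (48h-EpiLC) were above 0, so that these small counts are best read beside that share. TMM factors shift all ratios by -0.39 and -0.42, so that small values change sign with the scaling. Naïve genes had medians of 0.33 and 0.19, with Klf5 at 340 against 205 CPM in the ESC library and Zfp42 at 409 against 509 CPM. The core factors Sox2 (-0.28 and -0.13) and Utf1 (-0.51 and -0.49) were below 0, and Pou5f1 was near level (-0.17 and 0.02). The formative gene Dnmt3b was at 617 against 527 CPM in the 48h-EpiLC library (0.22). The targeted gene Cnot8 was at 60.7 against 63.4 CPM in the ESC library (-0.06, -0.36 to 0.22) and at 66.4 against 59.7 CPM in the 48h-EpiLC library (0.15, -0.06 to 0.36).

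Transcript length moved with the ratios across protein-coding genes. With protein-coding genes split into quintiles of annotated transcript length, the median ratio went through -0.24, 0.03, 0.20, 0.39 and 0.73 from the shortest to the longest quintile in the ESC library, and through -0.27, 0.04, 0.27, 0.49 and 0.86 in the 48h-EpiLC library. The share past 2-fold higher was 0.786% in the shortest and 27.1% in the longest quintile of the ESC library, and 0.826% and 37.2% in the 48h-EpiLC library. Across these genes, Spearman's rho with transcript length was 0.57 over 9539 genes and 0.66 over 9701 genes. It was 0.55 and 0.63 with coding length, 0.32 and 0.37 with the length of the 3′ UTR, and -0.24 and -0.22 with GC content. For lncRNAs, rho with transcript length was 0.37 over 271 ESC genes and 0.41 over 256 48h-EpiLC genes. These properties are correlated with each other across genes, and 3′ counting reads only the end of a transcript. Of the genes named above, Pfn1 and Gapdh have short transcripts, and Lrp2, Hspg2 and Fn1 long ones. The class medians and shares given above were not matched for length.

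Transcripts that encode a membrane segment were higher than those of genes with neither a segment nor a hydrophobic N terminus in the same length quintile. A segment was predicted by hydropathy on the translated coding sequence. Genes with a segment, without those on the receptor, secreted and ER chaperone lists, had medians of 0.53 (1386 ESC genes) and 0.49 (1441 48h-EpiLC genes). Genes with neither a membrane segment nor a hydrophobic N terminus had medians of 0.14 and 0.19. The split by length kept the genes of those lists. Within each of the 5 length quintiles the genes with a segment had the higher median in both libraries. In the ESC library these were -0.04 against -0.27 in the shortest and 0.95 against 0.67 in the longest quintile. Among 48h-EpiLCs these were -0.12 against -0.29 and 0.99 against 0.83. In the longest quintile 46.7% of genes with a segment and 21.6% of genes with neither were past 2-fold higher in the ESC library, and 48.8% and 34.1% in the 48h-EpiLC library. Lengths still vary within a quintile, and their part in these gaps was not tested.

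**Figure D4:**
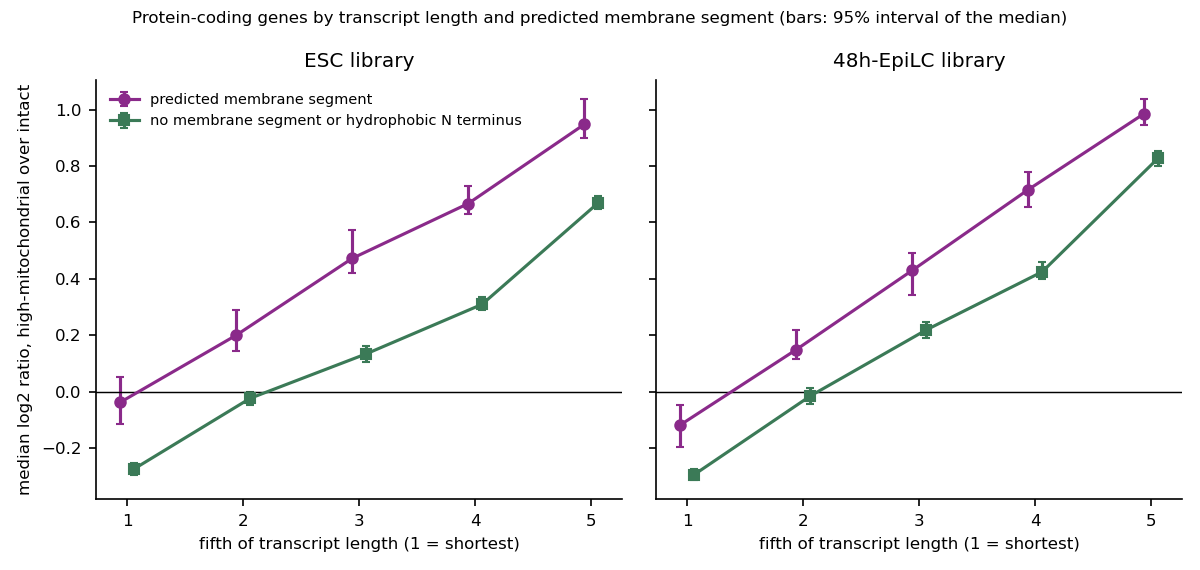
Median log2 ratio of high-mt barcodes over intact cells (y axis) by quintile of transcript length (x axis) for protein-coding genes with a predicted membrane segment and for genes with neither a segment nor a hydrophobic N terminus, in both libraries, with bars for the order-statistic interval of the median. Both lines climb with length (from -0.27 to 0.67 for genes with neither in the ESC library), and the genes with a segment lie above the others at every quintile.

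Stretches of A inside a transcript can prime reverse transcription with oligo(dT), and the longest run outside the last 100 bases was therefore read from the annotated transcripts. The longest runs are shown for a pair of high nuclear lncRNAs and a high receptor mRNA, on GRCm38, in transcript orientation with the run in capitals.
Malat1, chr19:5795979-5796008, minus strand: cctagctttAAAAAAAAAAAAgcaaaagac
Xist, chrX:103482677-103482706, minus strand: tttttgtAAAAAAAAAAAAAAAAAcaaaaa
Lrp2, chr2:69481276-69481305, minus strand: gacttttacaccAAAAAAAtctaccgtgct
The runs are 12 bases long in Malat1, 17 in Xist and 7 in Lrp2. These are examples only. The longest run is 41 bases in Kcnq1ot1 but 7 in Neat1, both of which were higher, and 9 in Bad, which was lower.

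Over all protein-coding genes of the ESC library the median ratio was 0.12 for runs of at most 7 bases and 0.52 for runs of 16 bases or more. Longer transcripts also held longer runs: 856 of 1908 genes of the longest quintile had a run of at most 7 bases, against 1804 of 1908 of the shortest. Within a length quintile, the medians of the run lengths lay closer together than this. In the longest quintile the medians were 0.71, 0.76 and 0.75 for runs of at most 7, of 8 to 11 and of 12 or more bases in the ESC library, and 0.84, 0.89 and 0.86 in the 48h-EpiLC library. The share past 2-fold higher in that quintile was still lowest for the shortest runs, at 23.0%, 31.2% and 29.4% in the ESC library and 35.6%, 38.6% and 38.7% in the 48h-EpiLC library. Among lncRNAs the median was 0.28 for runs of at most 7 bases in each library and 1.06 and 1.01 for runs of 16 bases or more, over 182 and 20 ESC genes and 174 and 18 48h-EpiLC genes. For lncRNAs this was not split by length, and priming inside transcripts was not tested.

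High-mt barcodes were not of a single kind. They were split by mt share into 10 to 20% (379 ESC and 629 48h-EpiLC barcodes), 20 to 50% (869 and 1613) and over 50% (128 and 25). In these bins ribosomal protein mRNAs made up 16.9%, 15.4% and 24.4% of non-mt UMIs in the ESC library, and 15.9%, 18.3% and 26.5% in the 48h-EpiLC library. In the bins below 10% they made up 22.6% to 23.7% and 23.7% to 24.2%. The barcodes with the highest mt share thus had a ribosomal share above that of intact cells, while those between 10 and 50% lay below it. Malat1 was at 14682, 22367 and 9191 CPM in the 3 bins of the ESC library and at 13979, 10944 and 4415 CPM in those of the 48h-EpiLC library. The rRNA-related Gm42418 was highest over 50%, at 16387 against 5600 CPM in the lowest of these bins of the ESC library and at 8047 against 4079 CPM in the 48h-EpiLC library. Nuclear-retained lncRNAs made up 1.65%, 2.48% and 1.02% of non-mt UMIs in the ESC and 1.57%, 1.25% and 0.470% in the 48h-EpiLC library. Nuclear-encoded OXPHOS genes made up 2.24%, 2.24% and 3.03% in the ESC and 2.04%, 2.38% and 3.18% in the 48h-EpiLC library, beside 2.44% and 2.55% at 2 to 5%, so that their share was higher in the bin over 50%. The bin over 50% rests on few barcodes, 25 of them in the 48h-EpiLC library, with a median of 356.5 and 521 non-mt UMIs.

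**Figure D5:**
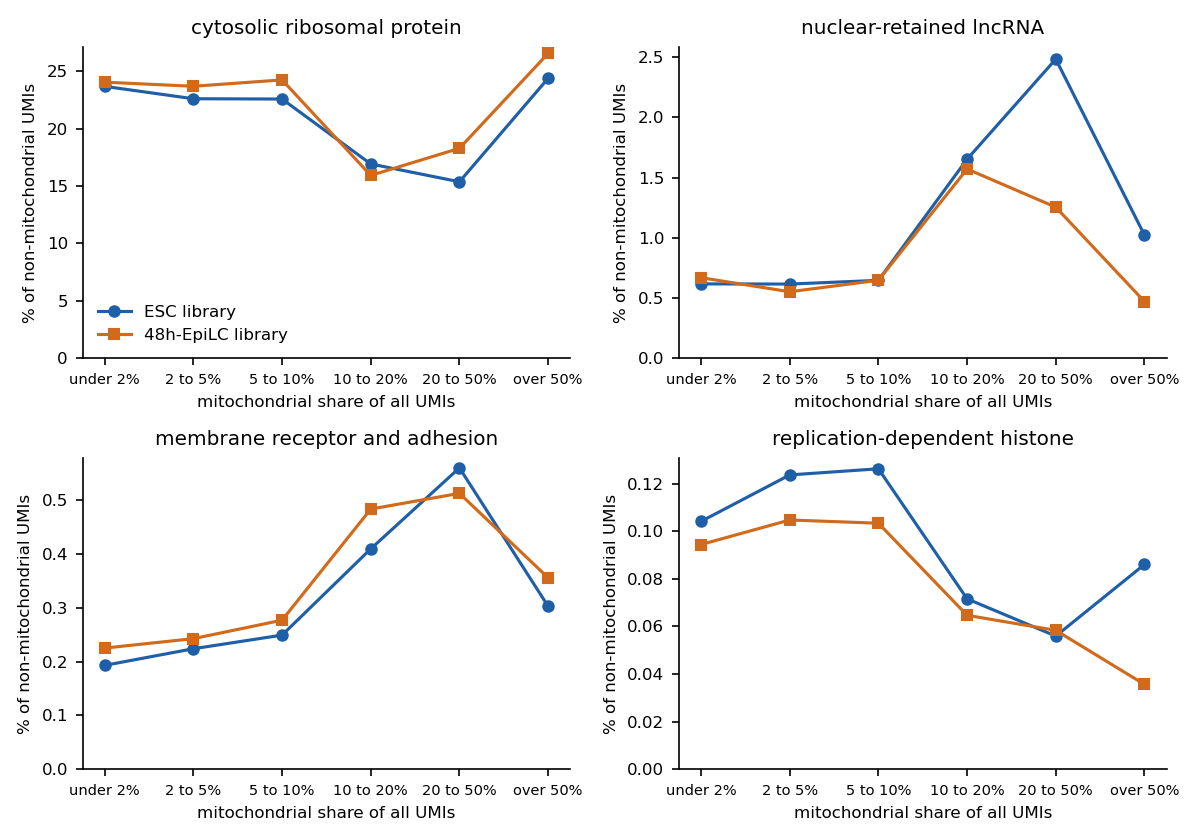
Share of non-mitochondrial UMIs in % (y axes) taken by ribosomal protein, nuclear-retained lncRNA, membrane receptor and histone genes in bins of the mitochondrial share of all UMIs (x axes) for the ESC and the 48h-EpiLC library, summed over the barcodes of a bin. The ribosomal share falls past 10% (to 15.4% at 20 to 50% in the ESC library) and is back at 24.4% and 26.5% over 50%, where only 128 and 25 barcodes remain.

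Gene number also divided them. In high-mt barcodes with at least 1000 genes the median ratio of ribosomal protein genes was -0.60 in the ESC and -0.75 in the 48h-EpiLC library, and with fewer genes it was -0.33 and -0.20. Nuclear-retained lncRNAs stood at 1.28 and 1.41 in these groups of the ESC library and at 1.55 and 0.82 in those of the 48h-EpiLC library. Membrane receptor genes stayed above 1 in all 4 groups, at 1.15 and 1.13 in the ESC and 1.31 and 1.04 in the 48h-EpiLC library.

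The other shallow barcodes had another composition in the ESC library. Low-complexity barcodes, compared with intact cells in the same way, had medians of -0.23 for nuclear-retained lncRNAs, -0.44 for membrane receptor genes and 0.21 for ribosomal protein genes, beside -0.29 for all genes. In the 48h-EpiLC library their nuclear-retained lncRNAs were high, at 1.22, while membrane receptor genes were at 0.09 and ribosomal protein genes at 0.02. High lncRNA ratios were therefore shared with the shallow barcodes of low mt share in the 48h-EpiLC library, whereas high membrane receptor ratios were not seen there.

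The mixture of lines was read from tdTomato, which marks the WT line, and from the Y-linked genes Ddx3y and Eif2s3y. The latter were taken as the tag of the KO line because earlier results of these data placed them there. The labels do not say so. Barcodes with UMIs of both tags were 73 of 11054 intact cells in the ESC and 76 of 9400 in the 48h-EpiLC library.

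Neither tag as a whole differed between the groups beyond counting error. tdTomato was found with 8 UMIs in ESC high-mt barcodes, at 4.67 CPM against 4.10 CPM in intact cells, a log2 ratio of CPM of 0.19 (-1.03 to 1.17). Among 48h-EpiLCs there were 13 UMIs, at 4.43 against 3.11 CPM, a ratio of 0.51 (-0.41 to 1.30). Ddx3y and Eif2s3y together gave 139 UMIs, at 81.1 against 68.7 CPM and 0.24 (-0.01 to 0.48) in the ESC library. In the 48h-EpiLC library they gave 210 UMIs, at 71.5 against 62.2 CPM and 0.20 (-0.00 to 0.40). These Y-linked ratios are close to the median of all genes and become -0.15 and -0.22 with TMM factors. In the ESC high-mt barcodes with at least 1000 genes the Y-linked ratio was 0.48 (0.17 to 0.77), and in the 48h-EpiLC ones 0.25 (-0.03 to 0.51). Against intact cells of similar depth (1000 to 5000 non-mt UMIs in both groups, 561 intact cells in the ESC and 211 in the 48h-EpiLC library), the tdTomato ratio was 2.32 (-0.16 to 5.66) in the ESC and 1.76 (-1.03 to 7.18) in the 48h-EpiLC library.

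The genes within a tag did not move alike. Ddx3y, an RNA helicase with the longer transcript, had ratios of 0.48 (0.16 to 0.79) and 0.39 (0.11 to 0.66), and Eif2s3y, a translation initiation subunit, had -0.10 (-0.53 to 0.30) and 0.01 (-0.30 to 0.30). Autosomal genes that earlier results found higher in the KO line split as well, with Nr1h5 at 1.06 and 0.86 and Ipp at -0.61 and -0.67. Of those found higher in the WT line, Dera had -0.59 (-1.29 to 0.02) and 0.21 (-0.15 to 0.55), and Slc25a13 had -0.23 (-0.68 to 0.18) and 0.42 (0.13 to 0.70). The intervals of these WT line genes include 0, except that of Slc25a13 in the 48h-EpiLC library.

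Counted by barcode, 8.65% of ESC high-mt barcodes had a Y-linked UMI against 44.5% of intact cells, and 8.07% against 47.6% in the 48h-EpiLC library. This gap was not seen at equal depth. After thinning to 1000 non-mt UMIs the shares were 6.84% (5.03% to 9.04%) against 6.59% in the ESC and 7.39% (6.02% to 8.96%) against 6.12% in the 48h-EpiLC library. Seen from the tags at that depth, high-mt barcodes were 5.81% (4.27% to 7.70%) of the Y-tagged and 6.52% (1.37% to 17.9%) of the tdTomato-tagged barcodes of the ESC library. They were 13.9% (11.4% to 16.8%) and 16.1% (5.45% to 33.7%) of those of the 48h-EpiLC library. The intervals for tdTomato are wide. The share of tag UMIs that came from free RNA was not estimated, and its part in the shares of these shallow barcodes was not tested.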

How the data were processed

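The values deposited by the authors are UMI counts per gene and barcode from Cell Ranger 3.0.2 with its defaults, on mm10 extended by the tdTomato coding sequence. The Chromium 3′ v2 kit is named for both libraries. Whether counting used the strand is not given in the sources used here, and no normalization or removal of free RNA or doublets is stated. All deposited barcodes, which passed the cell calling of Cell Ranger, were used.

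Barcodes were split by the mt share as described above. UMIs were summed per group and library and scaled to the total without mt- genes, over 1714011 and 135933521 such UMIs of high-mt barcodes and intact cells in the ESC library and 2937043 and 154143799 in the 48h-EpiLC library. Ratios are log2 of (CPM + 1) over (CPM + 1) for genes with a mean of at least 5 CPM, and ratios of line tags and their intervals are without the pseudocount. Cells are not replicates, so that barcodes carry no test. Intervals are exact Poisson, Clopper-Pearson or conditional binomial intervals at 95%, and those of medians are order-statistic intervals over genes. Doublets were left in, and leaving out the intact cells with the highest 10% of Scrublet-type scores was an alternative. Transcript features were taken from GENCODE M21 on GRCm38, where 32235 of 32286 features matched. A membrane segment was a window of 19 residues past residue 40 with a mean Kyte-Doolittle hydropathy of at least 1.9. A hydrophobic N terminus was a window of 11 residues, wholly within the first 30, with a mean of at least 2.2. Both were read on the translated coding sequence of the longest coding transcript. Calculations used Python 3.11.15, numpy 2.4.6, scipy 1.17.1 and pandas 2.3.3, and the scripts were tested on simulated data.

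Genes are named when they were among the 10 highest or lowest ratios of a library with at least 20 CPM in the higher group, among the 10 most extreme with the same sign in both libraries, among the 4 most abundant of a gene class, or past 2-fold in both libraries within a class, together with the mt- genes, the line tags, Cnot8, Malat1, Neat1 and Xist. Gm42418 was named in addition, after its values were seen. The members, the gene classes and the line tags were chosen with earlier results of these data known.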

Additional observations from a re-analysis of the deposited data

Results flagged for a closer look

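Slc25a3, the mitochondrial phosphate carrier, had log2 ratios of opposite sign, with 0.12 (0.05 to 0.19) in the ESC and -0.15 (-0.21 to -0.09) in the 48h-EpiLC library. With TMM factors, which shift all ratios by -0.39 and -0.42, both would be negative. The difference between the libraries was not tested.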

How the results depend on the processing

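No paired analysis was possible because each stage has 1 library. Settings marked as added were chosen after seeing the data. With the threshold at 5% for both groups, 2 genes were past 2-fold higher and 0 lower in the ESC and 72 and 0 in the 48h-EpiLC library. The medians were then 0.27 and 0.76 for nuclear-retained lncRNAs, 0.35 and 0.68 for membrane receptor genes, -0.036 and -0.10 for ribosomal protein genes, 0.036 (a change of sign) and -0.14 for histones and 0.0018 for ESC OXPHOS genes (a change of sign), and the ESC Y-linked ratio was -0.075. With high-mt barcodes above 20% only, 208 and 71 genes were lower, ribosomal medians were -0.53 and -0.40, the ESC receptor median 1.43 and the 48h-EpiLC histone median -0.94. High-mt barcodes with at least 1000 genes gave ribosomal medians of -0.60 and -0.75 and, in the 48h-EpiLC library, 1985 higher and 109 lower genes and an lncRNA median of 1.55. Those with fewer genes gave -0.33 and -0.20, 216 and 63 lower genes, 713 higher genes and an lncRNA median of 0.82 in the 48h-EpiLC library, and an ESC Y-linked ratio of -0.17. Thinning to 1000 UMIs gave ribosomal medians of -0.65 and -0.60, 1515 higher genes in the ESC library and 321 and 114 lower genes. The mean over barcodes gave -0.32 and -0.28, a 48h-EpiLC receptor median of 1.00, 134 lower ESC genes and 723 higher 48h-EpiLC genes.

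TMM factors gave 275 and 345 higher and 505 and 426 lower genes, with medians of 0.97 and 0.85 for lncRNAs, 0.84 and 0.76 for receptors, -0.87 and -0.90 for ribosomal proteins, -1.07 for 48h-EpiLC histones, and Y-linked ratios of -0.15 and -0.22. Under them the sign changed for all genes (-0.17 and -0.16), ESC snoRNA hosts (-0.30) and 48h-EpiLC integrated stress response genes (-0.22). Totals without ribosomal proteins gave -0.59 in each library for these, 146 and 83 lower genes, and -0.025 for ESC snoRNA hosts, a change of sign. A pseudocount of 5 CPM gave 517 and 712 higher and 28 and 13 lower genes. A mean of at least 1 CPM gave 1583 higher ESC genes and 176 and 82 lower genes, and of at least 20 CPM 511 and 702 higher and 34 and 15 lower genes. Barcodes with a Y-linked UMI only gave 1569 higher ESC genes, 673 and 534 lower genes, ribosomal medians of -0.58 and -0.57, an ESC receptor median of 0.76 and a 48h-EpiLC lncRNA median of 1.56. With both groups at 1000 to 5000 non-mt UMIs (added), 476 and 303 genes were lower, ribosomal medians were -0.73 and -0.65, the 48h-EpiLC histone median -1.13, and the tdTomato ratios 2.32 and 1.76. Medians of nuclear-retained lncRNAs and of receptors were above 0, and those of ribosomal proteins below 0, under each of the 18 alternatives run. The cause of these shifts was not tested. The comparison within tdTomato-tagged barcodes was not run, with 8 and 11 high-mt barcodes. Depth limits the tags most, since tdTomato rests on 8 and 13 UMIs of high-mt barcodes.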

Other observations

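Proteasome genes, of the cytosolic protease, had medians of -0.05 in the ESC and -0.17 in the 48h-EpiLC library, with none of 36 and 38 past 2-fold. The core subunit genes Psmb6 (-0.35 and -0.59) and Psma3 (0.10 and -0.07) lay on either side of the median in the ESC library. Genes of mitochondrial import and matrix proteins had medians of -0.06 and -0.16, and Polrmt, the RNA polymerase that transcribes the mitochondrial genome, was the member past 2-fold, at 39.1 against 17.4 CPM and at 25.5 against 11.5 CPM (1.12 and 1.09). The outer membrane import receptor Tomm20 was at 817 against 1045 CPM and at 963 against 1270 CPM (-0.35 and -0.40).

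A few genes differed in size between the libraries, which was not tested. Platr31, an antisense lncRNA opposite to Tigar, was at 82.3 against 11.1 CPM in the ESC library and at 22.5 against 22.9 CPM in the 48h-EpiLC library (2.78 and -0.02). Myl9, a regulatory myosin light chain, was at 25.7 against 18.8 CPM and at 16.7 against 38.5 CPM (0.43 and -1.16). Clca4a, which is annotated as a member of the calcium-activated chloride channel regulators, was found with 12 UMIs in ESC high-mt barcodes and with 63 UMIs, at 21.5 against 0.538 CPM, in the 48h-EpiLC library.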
